A study of Mus musculus with 18 samples.

Results

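The 10 genes described here are *Trim12a*, *Trim12c*, *Trim30a*, *Trim30b*, *Trim30d*, *Trim34a*, *Trim34b*, *Gm8979*, *Gm27149* and *AC123830.1*, taken by name from the 52636 genes of the gene tables for mouse colon. They were chosen by their names, with their levels in these same crypt and sorted libraries known, so their differences between genotypes are a description and carry no p-value. The label under which they were grouped fits 7 of the 10, which are *Trim* genes. *AC123830.1* (*Gm47248* in GENCODE M21) is a transcript antisense to *Trim34a*, and *Gm8979* and *Gm27149* are annotated as unprocessed pseudogenes next to *Gvin1*, not as *Trim* genes. All 10 lie on chromosome 7 on the same side of *Olfr78*, the gene that was engineered in the mice.

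RNA was sequenced from 18 samples. The Olfr78-GFP line (B6;129P2-Or51e2tm1Mom/MomJ) has its *Olfr78* coding exon exchanged for a cassette of GFP, IRES and tauLacZ, so homozygous mice lack the receptor in every tissue. Its crypts came from 2 wild-type (WT) and 5 homozygous (KO) mice, 1 mouse per library. From the same line, 2 pools of Epcam+ve/GFP+ve cells of heterozygous (HE) mice and 2 of KO mice were sorted, each from 2 mice, at 4 to 7 months of age, and 2 samples of Epcam+ve cells came from 1 WT mouse. In the second line, Olfr78fx (B6-Olfr78Tm1Mig), loxP sites flank the coding exon, and Vil1Cre, a Cre transgene driven by the *Vil1* promoter, is active in the intestinal epithelium. Crypts came from 3 control mice, 2 with 1 Cre allele and wild-type *Olfr78* and 1 with 2 floxed alleles and no Cre allele, and from 2 mice titled as epithelial knockouts (eKO). Of these, eKO 1 has 1 Cre allele and 2 floxed alleles, while the genotype label of the library labelled eKO 2 is that of the control mouse without Cre. The ages of the crypt mice are not given in the sources used here. The second line was tabulated separately from the other libraries. An engineered allele and the stretch of chromosome 7 inherited with it cannot be told apart in these groups, and from which strain that stretch came was not tested, since the tables hold reads per gene and no alleles.

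TRIM proteins carry a RING domain, B-boxes and a coiled coil, and many act as ubiquitin ligases. The mouse genes next to *Trim5* and *Trim6* form a cluster that lies among olfactory receptor genes and expanded by duplication, and several of them are induced by interferon. TRIM5 is known for blocking retroviral capsids, TRIM30a for restraining NF-kB signalling downstream of Toll-like receptors, and *Gvin1* encodes a very large GTPase induced by interferon.

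On GRCm38, the cluster runs on chromosome 7 in the order *Trim34a* (104244457 to 104262234, plus strand), *AC123830.1* (104261465 to 104262174, minus strand), *Trim12a* (104299894 to 104315466, minus), *Trim34b* (104329471 to 104336909, plus), *Trim12c* (104338754 to 104353362, minus), *Trim30b* (104355382 to 104369884, minus), *Trim30a* (104409025 to 104465193, minus) and *Trim30d* (104470014 to 104507849, minus). Their starts are 1.48 to 1.75 Mb from the start of *Olfr78* (102738511 to 102759471, minus). *Gm8979* (106076751 to 106084046, minus) and *Gm27149* (106091210 to 106092475, minus) have a single exon each and start 3.32 and 3.33 Mb away. All 609 exonic bases of *AC123830.1* lie within exons of *Trim34a* on the opposite strand. Whether the counting used the strand is not given in the sources used here, so reads of *AC123830.1* and *Trim34a* may not be separable.

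Some copies in these families are close enough to share reads, to an extent that differs between the genes. The longest coding sequences of *Trim34a* and *Trim34b* in GENCODE M21 differ at 35 of 1455 aligned bases, an identity of 97.6%. *Trim12a*, whose coding sequence is the shorter, and *Trim12c* differ at 32 of 891 aligned bases (96.4%), *Trim30a* and *Trim30d* at 147 of 1488 (90.1%), and *Gm8979* and its neighbour *Gm8989* at 55 of 7271 (99.2%). The 60-base stretches below show how little separates 3 of these pairs. For the *Trim* pairs they are the first stretch with an identity nearest to that of the whole alignment, starting at coding base 1 for *Trim12a* and *Trim12c* and at coding base 16 for *Trim34a* and *Trim34b*, and for *Gm8979* and *Gm8989* the stretch with the most differences, from transcript base 814 to base 873. Capitals mark the bases that differ within a pair.
Trim12a: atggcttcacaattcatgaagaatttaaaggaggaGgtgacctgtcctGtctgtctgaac
Trim12c: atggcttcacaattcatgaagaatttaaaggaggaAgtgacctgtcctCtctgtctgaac
Trim34a: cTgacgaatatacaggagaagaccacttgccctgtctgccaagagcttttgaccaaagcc
Trim34b: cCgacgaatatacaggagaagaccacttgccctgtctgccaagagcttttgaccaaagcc
Gm8979: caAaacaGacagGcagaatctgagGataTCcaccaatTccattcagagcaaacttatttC
Gm8989: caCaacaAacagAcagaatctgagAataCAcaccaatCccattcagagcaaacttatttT

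Of the distinct 100-base windows in the transcripts of each gene, 0 were found in another gene for *Trim30b*, 3.29% for *Trim12a*, 4.41% for *Trim30a*, 4.57% for *Trim30d* and 8.05% for *Trim12c*. The share was 30.5% for *Trim34b*, all of it with *Trim34a*, and 39.0% for *Trim34a*, of which *AC123830.1* on the other strand held part. For *Gm8979* it was 71.0%, most of it with *Gm8989*, and for *AC123830.1* 94.5%. All 1167 windows of *Gm27149* occur in *9130208D14Rik*, an unprocessed pseudogene 3.07 Mb from *Olfr78*, so its values are uncertain. How the aligner placed reads that fit several copies was not tested.

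The level of a gene is given as CP20M, its reads scaled to 20000000 per library. One read was worth 1.82 to 3.24 CP20M in crypts, 8.94 to 13.3 CP20M in most sorted libraries and 37.5 CP20M in KO pool 1, and the libraries held 6175306 to 10995317 reads on genes in crypts and 532704 to 2237486 in sorted cells. All 7 epithelial markers of the list used (*Epcam*, *Cdh1*, *Krt8*, *Krt18*, *Krt20*, *Vil1*, *Cdx2*) were found in every group. *Olfr78* had 88 and 111 CP20M in WT crypts and 42, 23, 27, 28 and 7 in KO crypts, where reads outside the replaced exon can still be counted. It had 105, 61 and 124 CP20M in control crypts, 21 in eKO 1 and 73 in the library labelled eKO 2, which lay within the control range. The neighbouring receptor gene *Olfr558* had 56 and 32 CP20M in WT crypts and 5 to 17 in KO crypts.

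In KO crypts, 7 of the 10 genes were lower than in WT crypts, *Trim34b* and *Trim12c* were higher, and *Trim30b* was too low to be compared. The differences were widest for *Gm8979*, 86.3-fold between the means, and for *Trim12a*, 56.2-fold, and *Trim34b* was 9.92-fold higher. Between eKO and control crypts the libraries of all 10 genes overlapped. Over all genes tested, the groups did not overlap in 31.3% for KO and WT crypts and in 10.4% for eKO and control crypts. Overlap between eKO and control crypts was thus the usual case. A library titled as eKO also carries the genotype label of the control mouse without Cre.

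*Gm8979*, the pseudogene next to *Gvin1*, had 9603 and 9412 CP20M in WT crypts and 78, 62, 84, 173 and 154 CP20M in KO crypts. Every KO library was far below both WT libraries, and the group means, 9507.5 ± 135 (SD, n = 2) and 110 ± 49.8 (SD, n = 5), differed 86.3-fold. The log2 fold change, on the scale of log2(CP20M + 10) used throughout, was -6.40 with a standard error (SE) of 0.30. Per kilobase of exon, it was the highest of the 10 genes in WT crypts, at 1303 CP20M per kilobase against 392.6 for *Gm27149* and 131.8 for *Trim12c*.

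*Trim12a* had 269 and 360 CP20M in WT crypts. In KO crypts it had 6, 13, 3, 3 and 3 CP20M, which are 2, 4, 1, 1 and 1 reads. The KO libraries thus held 1 to 4 reads where the WT libraries held 101 and 159, and the log2 fold change was -4.40 (SE 0.33).

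*Trim30d* had 392 and 292 CP20M in WT crypts against 34, 23, 12, 28 and 23 in KO crypts, a difference of the means of 14.3-fold and a log2 fold change of -3.39 (SE 0.29). *Trim30a*, the family member known for acting on Toll-like receptor signalling, had 104 and 150 CP20M in WT and 70, 20, 24, 37 and 37 in KO crypts, with a log2 fold change of -1.59 (SE 0.35). For both genes all 5 KO libraries lay below both WT libraries, and the reduction was the smaller one in *Trim30a*. *Trim30b* had 8 and 7 CP20M in WT crypts and 6, 0, 5, 10 and 0 in KO crypts, at most 4 reads in any library, and no difference was detectable at this depth.

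*Trim34a* had 155 and 197 CP20M in WT crypts and 70, 88, 86, 95 and 118 in KO crypts, and its log2 fold change was -0.88 (SE 0.21). Its near copy *Trim34b* had 8 and 16 CP20M in WT crypts and 108, 120, 110, 109 and 148 in KO crypts, with a log2 fold change of 2.57 (SE 0.23). The groups did not overlap for either gene, and the copies moved in opposite directions.

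The *Trim12* pair was split in the same way. *Trim12c*, by level per kilobase of exon the highest of the 7 *Trim* genes in WT crypts (131.8 CP20M per kilobase) and KO crypts (212.4), but second to *Trim30d* (153.0) in control and eKO crypts, had 472 and 514 CP20M in WT and 638, 791, 715, 748 and 1080 in KO crypts. Its log2 fold change was 0.66 (SE 0.17), the smallest of the 9 in size, and no KO library lay within the WT range. Without KO mouse 5, or with the library number as a block, it was not called. Its log2 fold change was 0.595 without WT mouse 1 and 0.716 without WT mouse 2, each of which leaves 1 WT library.

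*AC123830.1*, the transcript antisense to *Trim34a*, had 54 and 68 CP20M in WT crypts and 3, 0, 0, 3 and 0 in KO crypts. In reads these are 50 in the WT libraries and 2 in the KO libraries together, a ratio of 60.2 with a 95% interval from the counts (exact binomial) of 15.8 to 511, which treats pooled reads as independent and covers counting error only. Where no read was found, 3 reads would have been 6.79 to 9.72 CP20M. *Gm27149* had 541 and 453 CP20M in WT and 45, 81, 76, 90 and 141 in KO crypts, with a log2 fold change of -2.46 (SE 0.30).

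Of the 15975 genes with at least 40 CP20M in at least 2 of the 7 libraries, 9.48% were called changed by limma, with 0.2 as the upper limit of the Benjamini-Hochberg adjusted p and 0.585 as the smallest log2 change, 7.95% higher and 1.53% lower. All 9 of the described genes that passed the filter were called, 2 higher and 7 lower, and nothing is read from this count, since these genes were chosen with the values known, *Trim12a*, *Trim30d* and *AC123830.1* passed the filter through the WT libraries alone, *Trim30a* through these and 1 KO library, and *Trim34b* through the KO libraries alone. In 31.3% of all genes tested, the KO and WT libraries did not overlap (18.2% higher, 13.1% lower). The WT group had only 2 mice. Without WT mouse 1, 5 of 6 genes tested were called, and without WT mouse 2, 3 of 6, since *Trim12a*, *Trim30d* and *AC123830.1* then fell below the filter. The direction was kept in all 120 values that the alternatives gave for these genes, but sizes resting on few reads were not, with log2 fold changes of -1.29 (pseudocount 40) to -5.88 (DESeq2) for *AC123830.1*, -2.95 to -6.12 for *Trim12a* under the same settings and 1.61 (pseudocount 40) to 3.27 (pseudocount 1) for *Trim34b*.

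**Figure D1:**
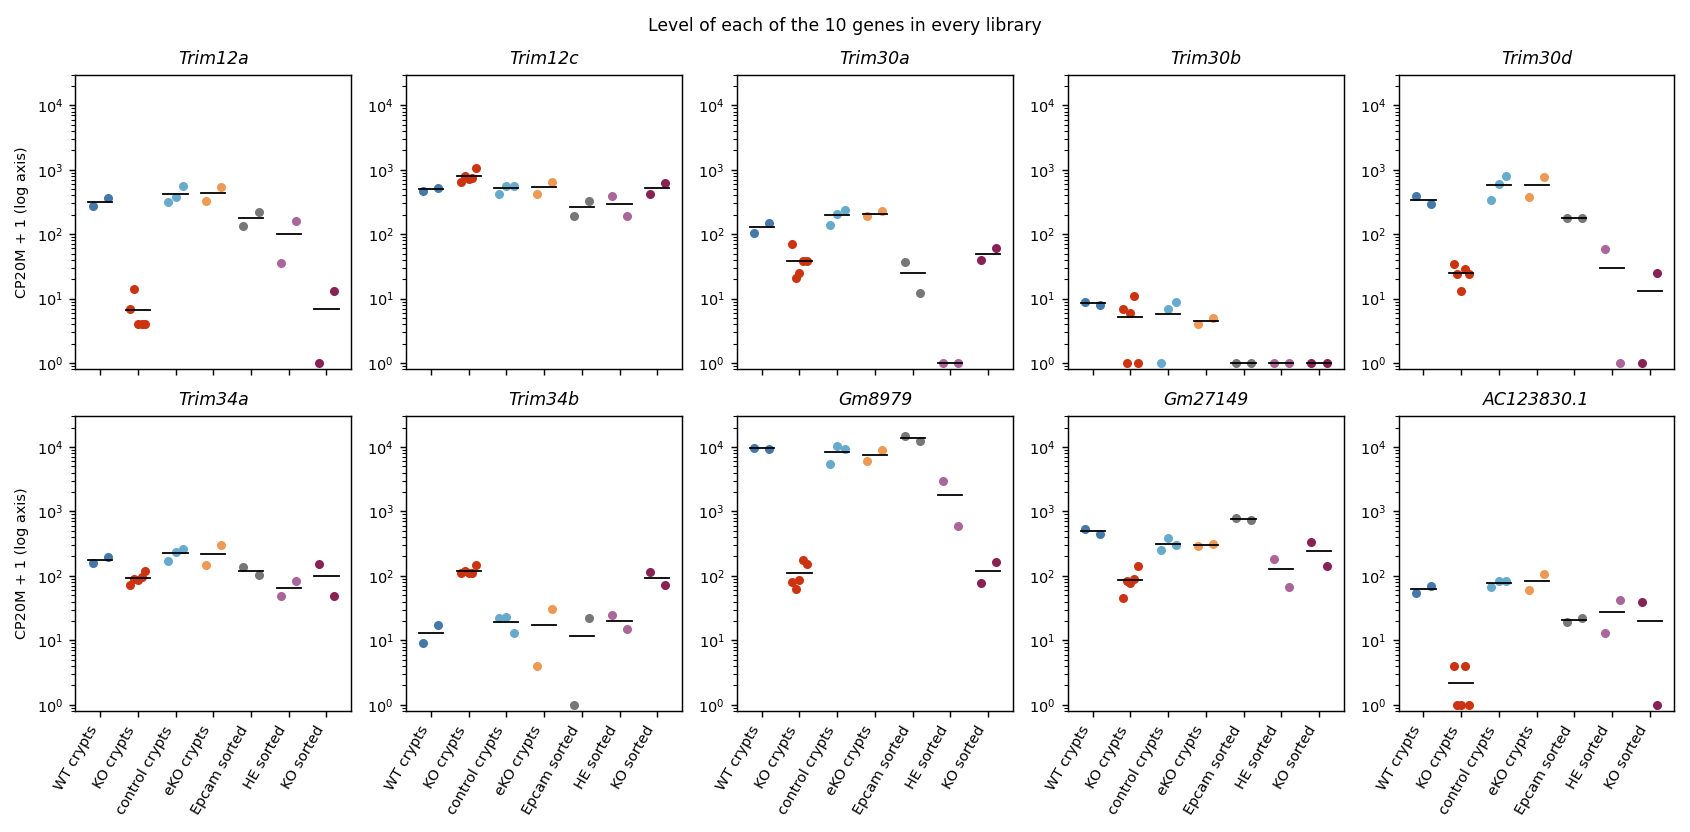
Level of each of the 10 genes in all 18 libraries, as CP20M plus 1 on a log axis (y) by group (x), where points are libraries and bars are group means. KO crypts lie below WT, control and eKO crypts for *Gm8979*, *Trim12a*, *Trim30d*, *Trim30a*, *Trim34a*, *Gm27149* and *AC123830.1*, and above them for *Trim34b*.

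In the Olfr78fx line, *Gm8979*, *Trim12a*, *Trim30a*, *Trim30d* and *AC123830.1* stood above the range of KO crypts in every library, whichever *Olfr78* allele the mouse carried. *Gm8979* had 5526, 10221 and 9320 CP20M in control crypts, 6010 in eKO 1 and 8853 in the library labelled eKO 2. *Trim12a* had 318, 370 and 554 CP20M in control mice against 322 and 535 in eKO mice, and *Trim30d* had 337, 593 and 795 against 371 and 779. *Trim34b*, the gene that was higher in KO crypts, had 21, 22 and 12 CP20M in control mice against 3 and 30 in eKO mice. For all 4 genes the groups overlapped.

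The libraries of the remaining genes overlapped as well. *Trim12c* had 417, 562 and 561 CP20M in control mice against 425 and 650 in eKO mice, *Trim30a* had 139, 206 and 239 against 190 and 226, and *Trim34a* had 172, 231 and 263 against 144 and 297. *Gm27149* had 253, 382 and 296 CP20M against 294 and 313, *AC123830.1* had 66, 83 and 81 against 59 and 106, and *Trim30b* had at most 8 CP20M in these 5 libraries. *Trim30b* and *Trim34b* did not pass the filter here. The log2 fold changes of the other 8 genes lay between -0.15 for *Gm8979* and 0.12 for *Trim30a*, with SEs of 0.21 to 0.41. No gene of 15401 tested was called by limma (0%), while 127 had an unadjusted p-value under 0.05, edgeR and DESeq2 on the recovered reads called 0 and 6 genes, and 0 of the described genes were among those called. The groups did not overlap in 10.4% of the genes (7.58% higher, 2.79% lower) and in 0 of these 8. Without the library labelled eKO 2, the log2 fold changes were -0.57 for *Trim34a*, -0.54 for *Trim30d* and -0.43 for *Gm8979*, and 0 of the 8 were called.

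The same 5 libraries were also split into 3 with 2 floxed alleles and 2 with none. Both libraries without a floxed allele carry Cre, and of the 3 floxed libraries only eKO 1 does, so the floxed allele, Cre and the deletion cannot be told apart in this contrast. The log2 fold changes of the described genes lay between -0.07 and 0.25, the largest for *Gm27149* (SE 0.20). By limma 0.00649% of the genes were called, that is 1 gene of 15401, and 0 of the 8.

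The genotype effect was then compared between the lines in 1 limma fit over all 12 crypt libraries. The log2 fold change in the Olfr78-GFP line minus that in the Olfr78fx line was -6.26 (SE 0.49) for *Gm8979*, -4.45 (SE 0.44) for *Trim12a*, -3.38 (SE 0.51) for *Trim30d*, -2.72 (SE 0.43) for *AC123830.1* and -2.45 (SE 0.43) for *Gm27149*. For *Trim34b* the difference was 2.86 (SE 0.55), for *Trim30a* -1.71 (SE 0.49), for *Trim34a* -0.81 (SE 0.39) and for *Trim12c* 0.61 (SE 0.30). Of 16447 genes 0.0304% were called, 5 genes, which were the first 5 named here, all lower. This is a count over genes chosen with both contrasts in view, and it supports nothing by itself. Without the library labelled eKO 2, 3298 genes were called, 8 of the described genes among them, and without either WT mouse 2 of the described genes, *Gm8979* and *Trim12a*. Without control mouse 3 there were 3, these and *Trim30d*. The tables of the lines were made separately.

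**Figure D2:**
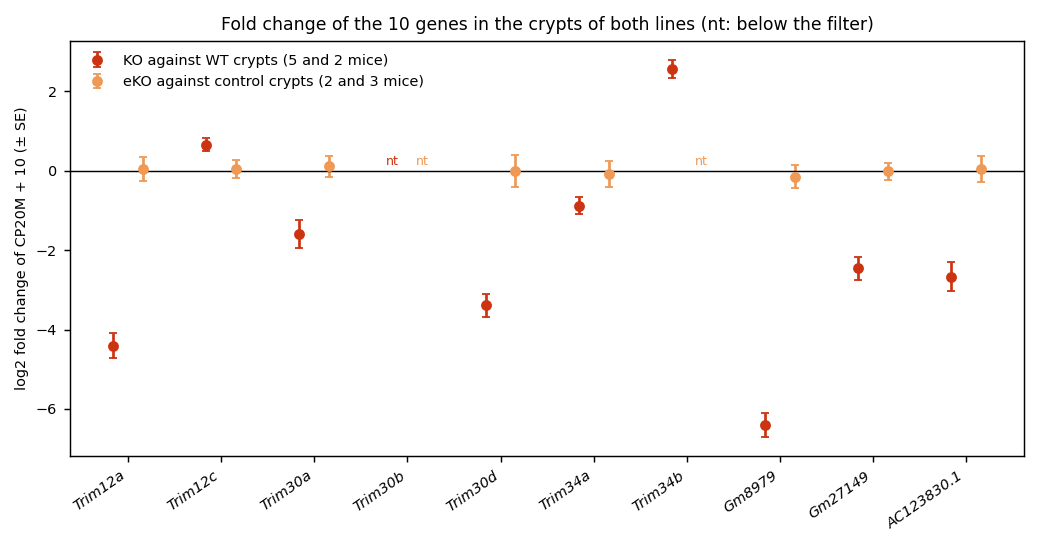
The log2 fold change of CP20M + 10 (y, with SE bars) of each gene (x) in KO against WT crypts (5 and 2 mice) and in eKO against control crypts (2 and 3 mice). In the first contrast the points range from -6.40 (*Gm8979*) to 2.57 (*Trim34b*), and in the second all lie between -0.15 and 0.12.

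Because the near copies can share reads, each pair was also described by its sum and by the share of the sum that fell to 1 copy. The sum of *Trim34a* and *Trim34b* was 163 and 213 CP20M in WT crypts and 178, 208, 196, 204 and 266 in KO crypts, so the groups overlapped although they were apart for each gene. *Trim34b* took 4.92% and 7.45% of the reads of the pair in WT crypts and 53.4% to 60.9% in KO crypts. In control and eKO crypts its share was 1.75% to 10.8%. The 95% intervals from the counts (exact binomial, which cover counting error only, here and below) had upper limits of at most 20.2% in the 7 libraries other than KO and lower limits of at least 42.5% in KO crypts.

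*Trim12a* and *Trim12c* have few 100-base windows in common, 37, which are 0.62% and 1.01% of their windows. Together they had 741 and 874 CP20M in WT crypts and 644, 804, 718, 751 and 1083 in KO crypts, and again the groups overlapped. *Trim12c* took 63.7% and 58.8% of the reads in WT crypts, 50.3% to 60.3% in control and eKO crypts and 98.4% to 99.8% in KO crypts.

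For *Gm8979* and *Gm8989* the sums did not overlap, with 11667 and 11293 CP20M in WT crypts and 1296, 1057, 1283, 2261 and 2628 in KO crypts. *Gm8979* took 76.9% to 85.5% of the reads of this pair in the 7 crypt libraries that were not KO and 5.83% to 7.64% in KO crypts. *Gm8989* itself, named for the windows it shares and after its values were seen, had 2064 and 1881 CP20M in WT and 995 to 2474 in KO crypts and was not called, with a log2 fold change of -0.39 (SE 0.28, adjusted p = 0.404 by limma).

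*9130208D14Rik*, which holds every window of *Gm27149* and was named in the same way, had 9917 and 10146 CP20M in WT and 7647 to 12616 in KO crypts, a log2 fold change of 0.08 (SE 0.15, adjusted p = 0.778 by limma). *Gm27149* took 5.17% and 4.27% of the reads of both genes in WT crypts, 2.82% to 3.68% in control and eKO crypts and 0.379% to 1.10% in KO crypts. *Trim30a* and *Trim30d*, both lower in KO crypts, had a sum of 496 and 442 CP20M in WT and 36 to 104 in KO crypts. The sum over the 7 *Trim* genes was 1408 and 1536 CP20M in WT crypts and 932, 1055, 955, 1030 and 1409 in KO crypts.

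**Figure D3:**
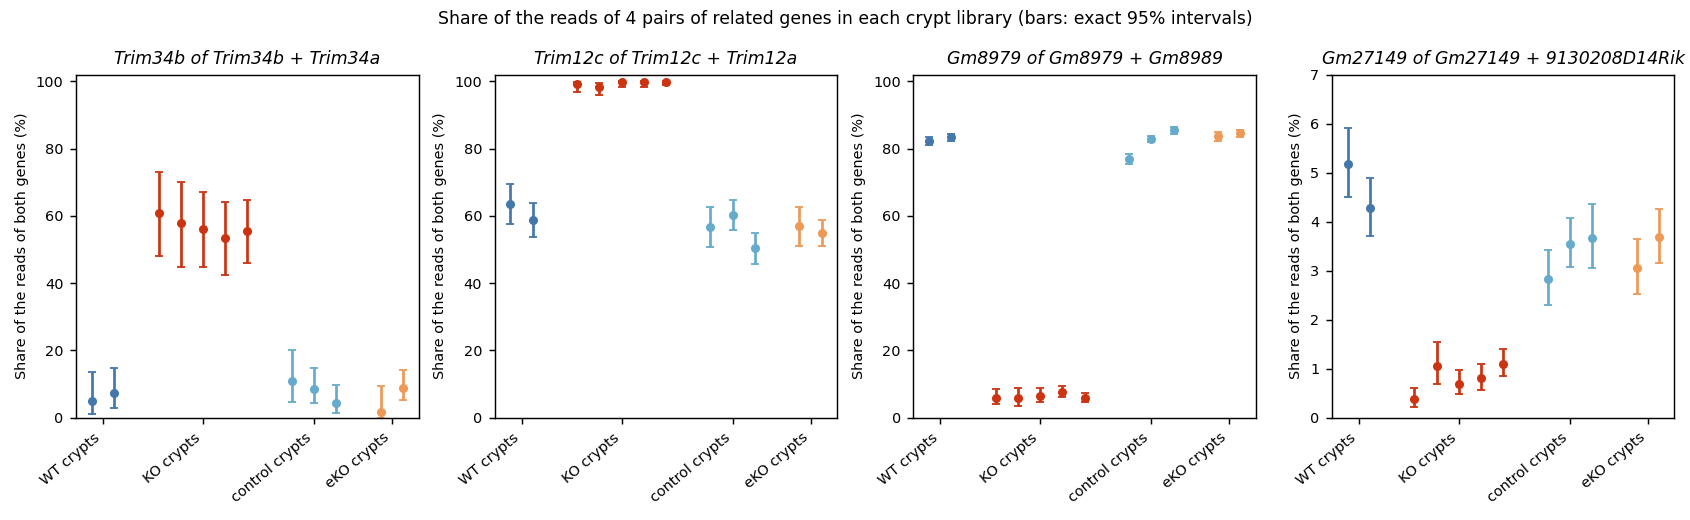
Share of the reads of 4 pairs of related genes that fell to the first gene of the pair (y, in percent, with exact 95% intervals) in each of the 12 crypt libraries, by group (x). *Trim34b* stands at 53.4% to 60.9% in KO crypts and at most at 10.8% elsewhere, and *Gm8979* at 5.83% to 7.64% in KO crypts and at least at 76.9% elsewhere. The y axis of the right panel ends at 7%.

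The sorted cells give the 3 allele counts of the Olfr78-GFP line, with none in Epcam+ve cells, 1 in HE pools and 2 in KO pools, but cell type and allele count cannot be told apart between Epcam+ve and HE cells, because the GFP+ve cells are enteroendocrine. Their markers (*Chga*, *Chgb*, *Tph1*, *Neurod1*, *Pyy*) summed to 12638 and 12917 CP20M in the Epcam+ve samples, 848738 to 1100149 in HE pools and 354920 to 596093 in KO pools. The marker sums of HE and KO pools did not overlap, so cell state and allele count cannot be told apart between those pools either. In bulk cells, fewer expressing cells and less RNA per cell cannot be told apart, here and in crypts.

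*Gm8979* had 15026 and 12287 CP20M in Epcam+ve samples, 2992 and 601 in HE pools and 76 and 163 in KO pools. Its level was thus ordered by allele count with no overlap, though the cells of these groups differ as well, and the KO pools held 2 and 14 reads. The log2 fold changes were -3.33 (SE 0.59) for HE against Epcam+ve cells and -3.47 (SE 0.76) for KO against HE pools, which share the HE libraries. Its near copy *Gm8989* had 3478 and 2928 CP20M in Epcam+ve samples, 1117 and 227 in HE pools and 188 and 1093 in KO pools. *Gm8989* was thus also lower in HE pools than in Epcam+ve samples without overlap, while its HE and KO pools overlapped. *Gm8979* took 81.2% and 80.8% of the reads of this pair in Epcam+ve samples and 72.8% and 72.6% in HE pools. In KO pools its share was at most 28.6%. *9130208D14Rik*, its relative, also stood lower in HE pools, at 4615 and 987 CP20M where the Epcam+ve samples had 15580 and 13561 (log2 fold change -2.76, SE 0.57, adjusted p = 0.0106 by limma, not called at the threshold of 0.001), and stood at 4956 and 7949 in KO pools.

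*Trim12a* had 135 and 216 CP20M in Epcam+ve samples, 35 and 161 in HE pools and 0 and 12 in KO pools. The KO pools held 1 read together where the HE pools held 15, a ratio of 10.4 with a counting interval of 1.61 to 440. *Trim34b* had 0 and 21 CP20M in Epcam+ve samples, 24 and 14 in HE pools and 113 and 70 in KO pools. Here 9 reads in the KO pools stood against 3 in the HE pools, a ratio of 4.31 with an interval of 1.08 to 24.8. In both genes the values of the pools lay apart in the direction seen in crypts, which is a description of genes chosen with these values known. Pools lay apart in 35% of all genes tested in this comparison. For *Trim12a*, the lack of reads in KO pool 1 allows up to 113 CP20M, which is between the values of the HE pools. The intervals treat pooled reads as independent and cover counting error only, not the spread between pools. Neither gene passed the filter for this comparison.

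*Trim12c* had 188 and 329 CP20M in Epcam+ve samples, 392 and 187 in HE pools and 413 and 628 in KO pools, with a log2 fold change of 0.88 (SE 0.53) for KO against HE pools. *Trim34a* had 135 and 103, then 47 and 81, then 151 and 47 CP20M in the same groups, and *Trim30d* had 179 and 175, then 58 and 0, then 0 and 24. *Trim30a* had 36 and 11 CP20M in Epcam+ve samples, no read in HE pools and 38 and 59 in KO pools, which is at least 2.60-fold above 3 reads over the HE group and opposite in direction to the crypts, on 6 reads. Whether this differs from the crypts was not tested.

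*Gm27149* had 778 and 730 CP20M in Epcam+ve samples, 185 and 67 in HE pools and 338 and 140 in KO pools. Its KO and HE pools overlapped, and its log2 fold change of 0.90 (SE 0.68) had the other sign than in crypts. *AC123830.1* had 18 and 21, 12 and 41, and 38 and 0 CP20M, at most 3 reads in a library, and *Trim30b* had no read in any sorted library, which allows up to 26.8 CP20M in the deepest of them and 113 in KO pool 1.

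For KO against HE pools, 11892 genes exceeded 40 CP20M in all 4 libraries, limma called 0% of them when the adjusted p had to be under 0.05, and 503 had an unadjusted p-value under 0.05. The tests of counts called 0 genes (edgeR) and 8 genes (DESeq2), with *Gm8979* among the 8. By the criterion of the methods, which asks that the means lie 2 average SDs apart and differ 1.5-fold, 13.2% of the genes were called (3.23% higher, 9.99% lower). Of the described genes 4 passed the filter, *Gm8979*, *Trim12c*, *Trim34a* and *Gm27149*, and 0 were called by limma or by that criterion. The pools of *Gm8979* and *Trim12c* did not overlap, as in 35% of the genes (8.91% higher, 26.1% lower). For HE against Epcam+ve cells 1.75% of 16355 genes were called (1.58% higher, 0.171% lower), with limits of 0.001 for the adjusted p and 2 for the log2 change, and 0 of the 6 described genes tested. The libraries did not overlap in 63.5% of the genes (30.4% higher, 33.1% lower) and in 4 of the 6, all lower. Leaving out HE pool 1 gave 3 calls among them, *Gm8979*, *Gm27149* and *Trim30d*.

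Of the other *Trim* genes of the cluster, *Trim5* and *Trim6* passed the filter and were called in KO against WT crypts by limma within the whole table. *Trim5* had 70 and 50 CP20M in WT and 17, 13, 29, 24 and 19 in KO crypts and was lower (log2 fold change -1.21, SE 0.31, adjusted p = 0.0347 by limma). Its coding sequence has an identity of 97.1% with *Trim12a*, over 891 aligned bases, and of 96.6% with *Trim12c*. Both share more 100-base windows with *Trim5* (120 and 258) than with each other (37). *Trim6*, at the end of the cluster nearest to *Olfr78*, had 99 and 127 CP20M in WT and 161 to 249 in KO crypts and was higher (0.78, SE 0.20, adjusted p = 0.0381 by limma). *Trim30c*, *Trim30e-ps1* and *Gm15133* were below the filter and not tested. *Trim30c* had 3 and 3 CP20M in WT and 0 to 10 in KO crypts, which overlapped. The pseudogene *Trim30e-ps1* had 6 and 21 CP20M in WT crypts, 8 to 22 in the Olfr78fx line and no read in the 5 KO libraries, which is at least 8.70-fold lower than in WT against 3 reads over the KO group. *Gm15133*, a transcript that starts within *Trim12a* on the opposite strand, had 8 and 19 CP20M in WT crypts and no read in KO crypts. In the Olfr78fx line it had 16, 30 and 31 CP20M in control crypts, 39 in eKO 1 and 53 in the library labelled eKO 2. These groups did not overlap, as in 10.4% of the genes tested there.

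Over all other *Trim* genes, 7 of 10 on chromosome 7 were tested in KO against WT crypts, with *Trim6* and *Trim72* (0.91, SE 0.24, adjusted p = 0.043 by limma) higher and *Trim5* lower. *Trim72* lies more than 20 Mb from *Olfr78*. On other chromosomes, 33 of 52 were tested and only *Trim7* was called (0.82, SE 0.23, adjusted p = 0.0483 by limma), which rose. The median log2 fold changes were 0.28 and 0.04 beside 0.03 over all genes. In eKO against control crypts 0 of 7 and 0 of 31 tested were called.

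Around *Olfr78*, genes other than the 10 were called in KO against WT crypts in 8 of 41 cases within 2 Mb (19.5%, with *Olfr78* itself among the 8), 11 of 64 at 2 to 5 Mb (17.2%), 5 of 52 at 5 to 10 Mb (9.62%) and 20 of 126 at 10 to 20 Mb (15.9%), and in 9.21% of the genes on other chromosomes. These shares are a description, with no test across distance. In eKO against control crypts 0 of 39 and 0 of 61 were called within 2 Mb and at 2 to 5 Mb. The fold changes of the described genes, plotted by distance from *Olfr78*, were larger in size than that of *Olfr78* itself (-1.71, SE 0.38) for *Gm8979*, *Trim12a*, *Trim30d*, *AC123830.1*, *Gm27149* and *Trim34b*.

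The named neighbours that rose in KO crypts lay on both sides of *Olfr78*. *Gm35082*, a long noncoding RNA 2.08 Mb away, had 0 and 3 CP20M in WT and 37 to 87 in KO crypts (log2 fold change 2.73, SE 0.32, adjusted p = 0.00137 by limma). *Art2b*, which encodes an ADP-ribosyltransferase of the cell surface, had 8 and 10 CP20M in WT and 48 to 221 in KO crypts (2.52, SE 0.43, adjusted p = 0.00925 by limma). *Gm20663*, which spans *Gm8979* and *Gm27149* on the opposite strand but has no exon overlapping theirs, had 3 and 7 CP20M in WT and 30 to 49 in KO crypts (1.73, SE 0.30, adjusted p = 0.0093 by limma). *Omp*, which encodes the olfactory marker protein (1.35), *Il18bp*, which encodes an inhibitor of interleukin-18 (0.77), the long noncoding *Gm35363* (1.20) and the pseudogene *AC107638.1* (1.05) also rose, with limma adjusted p-values of 0.00526, 0.016, 0.0455 and 0.042. *Gvin1*, named here for the windows it shares with *Gm8979*, fell from 75 and 53 CP20M to 22 to 47 (-0.77, SE 0.30, adjusted p = 0.128 by limma).

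**Figure D4:**
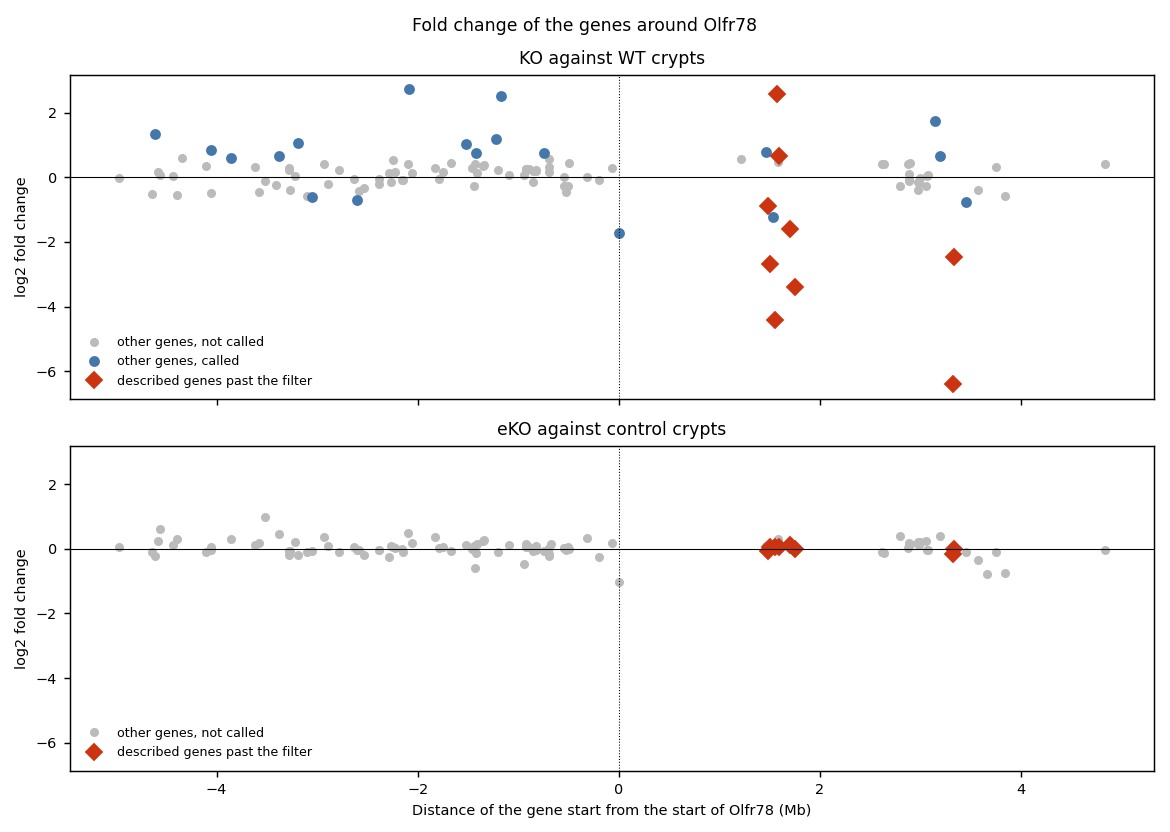
The log2 fold change (y) of the genes tested within 5 Mb of *Olfr78* by the distance of their start from that of *Olfr78* (x, Mb), in KO against WT crypts (top) and eKO against control crypts (bottom). Diamonds are the described genes past the filter and blue points other genes called changed. In the top panel the diamonds reach -6.40, and in the bottom panel they lie between -0.15 and 0.12.

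Genes with a profile like that of *Gm8979* over the 7 crypt libraries of the Olfr78-GFP line were looked for among 15966 genes, by the root mean square difference of centred log2 values. The 3 nearest were *Gm10020* on chromosome 15 (1.85), *Gm10224* on chromosome 6 (1.95) and *9130204K15Rik* on chromosome 11 (2.08). None was close in size, with log2 fold changes of -2.67, -2.14 and -1.95 beside -6.40 for *Gm8979*. *Gm10020* had 139 and 111 CP20M in WT and 3 to 20 in KO crypts, but 27 to 53 in the Olfr78fx line.

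Members of the cluster respond to interferon in other settings, so a short motif was looked for in their promoters. RefSeq windows on GRCm38.p6, from 250 bases before to 50 after a start, exist for the 7 *Trim* genes. GAAA followed by 2 bases of any kind and again GAAA, the core of the element that interferon-activated factors bind, was searched on both strands and found in 3.44% of 32851 windows and for 5 of the 7 genes, *Trim12a*, *Trim12c*, *Trim30a*, *Trim30d* and *Trim34a*. For *Trim30b* and *Trim34b* the letters are not in the window. The 30-base stretches are written in the direction of the gene, with the match in capitals, and all 5 matches lie on the opposite strand. They are shown because *Trim12a* and *Trim12c*, which differed in opposite directions in KO crypts, carry the same letters. In their order they are at chr7:104315466-104315495, chr7:104353359-104353388, chr7:104465210-104465239, chr7:104507871-104507900 and chr7:104244457-104244486, the last on the plus strand and the others on the minus strand.
Trim12a: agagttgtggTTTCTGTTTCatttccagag
Trim12c: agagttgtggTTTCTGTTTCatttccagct
Trim30a: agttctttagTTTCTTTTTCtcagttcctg
Trim30d: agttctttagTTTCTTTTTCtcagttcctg
Trim34a: tggtttggagTTTCAGTTTCttttctctgc

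The stretches of *Trim30a* and *Trim30d* were identical, as were the motif letters of *Trim12a* and *Trim12c*, of which the first was lower and the second higher in KO crypts. *Trim5* holds the same 30 bases as *Trim12a*. A match is a description of the sequence and not a bound site.

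Genes that interferon induces were listed to set the cluster beside them, and 36 of 40 were tested. In KO against WT crypts 3 were higher, where 7.95% of all genes were called higher, namely *Oas2* (log2 fold change 1.71, SE 0.26, adjusted p = 0.00541 by limma) and *Oas1g* (0.62, SE 0.18, adjusted p = 0.0594 by limma), which encode sensors of double-stranded RNA, and *Mx1* (1.56, SE 0.27, adjusted p = 0.00918 by limma), which encodes an antiviral GTPase. None was lower, and the median was 0.00 beside 0.03 over all genes tested. The sum of the list was 18345 and 18940 CP20M in WT and 17119 to 23077 in KO crypts, which overlapped. Of 19 genes of NF-kB and Toll-like receptor signalling, *Tnfaip3*, an inhibitor of NF-kB, was called higher (0.66, SE 0.16, adjusted p = 0.0291 by limma), 1 of 19 beside 7.95% of all genes. In eKO against control crypts 0 genes of either list were called.

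Leukocytes also express *Trim30* genes. Of 15 leukocyte markers 8 were tested, and 3 were called lower in KO crypts, where 1.53% of all genes were called lower. These were *Lyz2* (-1.34), *Coro1a* (-0.86) and *Ptprc* (-0.66), with limma adjusted p-values of 0.0701, 0.138 and 0.14. The median of the 8 was -0.54 beside 0.03 over all genes. The values of others were not lower, *Cd52* with 75 and 68 CP20M in WT and 80 to 141 in KO crypts and *Cd68* with 38 and 37 against 36 to 49, and neither was called. All 15 were above 0 in both groups, and their sum was 869 and 1045 CP20M in WT crypts, 517 to 813 in KO crypts, 677 to 1141 in control mice and 676 to 736 in eKO mice. The sums of WT and KO crypts did not overlap. Stroma markers summed to 1174 to 2989 CP20M in WT and 605 to 1903 in KO crypts, and 0 of 6 were called. Of the endothelium markers 0 of 1 tested and of the epithelium markers 0 of 7 were called, and of 5 enteroendocrine markers *Chgb* was lower (-0.61, adjusted p = 0.124 by limma). In the sorted Epcam+ve samples the leukocyte markers summed to 229 to 306 CP20M, and 8 of the 15 were above 0, among them *Ptprc* (54 and 31 CP20M), *Csf1r* (36 and 93) and *Cd68* (63 and 21), while the T cell markers *Cd3e*, *Cd3d* and *Cd2* were at 0. The part of leukocytes in the crypt differences of each gene was not tested.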

How the data were processed

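The study's methods name STAR for mapping read pairs to GRCm38 and HTSeq for counts per gene (Ensembl 90 annotation). Per gene, the authors deposited values in the unit here called signal (sorted cells) or score (crypts), reads rescaled so that a library holds 20000000, rounded up (CP20M). Whole reads were recovered from 99.84% to 99.99% of the values of a library. The members and lists were chosen with earlier results of these data known. Groups follow the sample titles. Genes were tested with limma 3.58.1 (trend) on log2(CP20M + 10), Benjamini-Hochberg adjusted over all genes tested, within a table except for the comparison of the lines. The fits were tested on simulated reads. Alternatives were pseudocounts of 1 and 40, median-of-ratios scaling, edgeR 4.0.16 (quasi-likelihood) and DESeq2 1.42.0 on recovered reads, no filter, other criteria for sorted cells, the library number as a block, and each library left out. Named genes were the 10 members, *Olfr78*, *Olfr558*, the 3 nearest profiles to the member with the largest change, at most 10 called neighbours within 5 Mb, and at most 5 called genes of the lists. *Gm8989*, *9130208D14Rik*, *Gvin1*, *Trim30c*, *Trim30e-ps1* and *Gm15133* were added after their values were seen, for sequence or position. Positions and transcripts are from GENCODE M21 (99.72% of genes matched), promoters from RefSeq, alignments from MAFFT 7.526. P-values measure the spread between libraries, and the 2 Epcam+ve samples come from 1 mouse. All columns of the tables were used. The value of 1 leukocyte marker is not reported here.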

Additional observations from a re-analysis of the deposited data

Results flagged for a closer look

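The sum of the 7 *Trim* genes was 1409 CP20M in KO crypts 5, where the other 4 KO libraries had 932 to 1055. Its gap to the nearest library was 0.742 of the range of the group, above the critical value of 0.71 for 5 libraries. Chance marks about 1 in 20 groups in this way, and 16 sets of values were examined.

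The genotype effect differed between the lines, by limma over the 12 crypt libraries, for 5 genes. The log2 fold change in the Olfr78-GFP line minus that in the Olfr78fx line was -6.26 for *Gm8979*, -4.45 for *Trim12a*, -3.38 for *Trim30d*, -2.72 for *AC123830.1* and -2.45 for *Gm27149*. These genes were chosen with both contrasts known, so the differences are a description.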

How the results depend on the processing

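No value changed direction past a threshold. The fold changes of the described genes kept their sign in 120 of 120 alternative values for KO against WT crypts, 162 of 162 for the difference between lines and 548 of 584 over all comparisons, while 49 of the 584 moved by more than the spread between replicates. With a pseudocount of 40, 854 genes and 12 neighbours within 5 Mb were called in KO against WT crypts. DESeq2 called 6 genes for eKO against control, 3 for the floxed allele, 63 for the difference between lines, 8 with 1 described gene for KO against HE pools, and 720 with 1 described gene for HE against Epcam+ve cells. Without a filter, 2 genes were called for the floxed allele, 3 genes, described genes all, for the difference between lines and 2 for KO against HE pools. With a pseudocount of 1, 3 genes, described genes all, were called for the difference between lines. The criterion of the methods called 1572 genes for KO against HE pools. For HE against Epcam+ve cells, 77 genes were called with a pseudocount of 1, 522 with 40, and 759 with 2 described genes by edgeR. The cause of these shifts was not tested.

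No source says that a replicate number marks a shared litter, batch or day, and with 2 numbers the data cannot show it. The correlation of same-numbered deviations was 0.0614 and -0.103 between KO and WT mice, 0.589 and 0.363 between eKO and control mice, 0.0297 for HE and Epcam+ve and -0.244 for KO and HE pools. With the replicate block, 13 genes were called for eKO against control and 523 with 1 described gene for HE against Epcam+ve cells, and *Trim12c* was not called in KO against WT crypts. With the crossed pairing of the pools, chosen after seeing the data, 85 genes and 1 described gene were called.

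Leaving out each library in turn, the counts of all genes, described genes and neighbours within 5 Mb ranged from 546 to 1684, 3 to 9 and 6 to 21 for KO against WT crypts, and from 2 to 3298, 2 to 8 and 0 to 29 for the difference between lines. For eKO against control 1 to 6 genes and 0 described genes were called, and for the floxed allele 1 to 2 genes. For KO against HE pools they were 0 to 373 genes and 0 to 1 described gene, called without either KO pool, and for HE against Epcam+ve cells 317 to 1195 genes and 0 to 3 described genes. Median-of-ratios scaling shifted the median of all genes by 0.172 on the log2 scale for KO against HE pools. Depth limits the sorted cells, where 3 reads are 26.8 to 113 CP20M.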
